A study of Mus musculus with 2 samples.

Results

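Bone is hardened by calcium phosphate laid down in a collagen scaffold, and 10 genes of that process, of the 32245 gene columns in each table, were followed in single cells of the mouse knee. They were chosen by name: the osteocalcin copies Bglap, Bglap2 and Bglap3, the acidic matrix proteins Ibsp, Spp1 and Dmp1, the osteoblast membrane protein gene Ifitm5, the phosphatase genes Phospho1 and Alpl, and Mgp, which codes for matrix Gla protein. The data were 3′ single-cell libraries of knee joint cells from female mice about a month old, with 1 library per genotype made from a pool of a few animals. The control mice were Stat3fl/fl, with both Stat3 alleles flanked by loxP sites and no Cre, and the mutant mice (Stat3KO) were labelled Acan-Cre+/Cre;Stat3fl/fl. Both carried the floxed alleles on a C57BL/6 background. The Cre, expressed from the aggrecan promoter and switched on by tamoxifen given in the first days after birth, acts in chondrocytes. Cells of the osteoblast lineage are not its labelled target. The paper states that hypertrophic chondrocytes can become osteoprogenitors, so osteoblast-lineage cells may descend from chondrocytes in which the Cre acted, which was not tested. Live cells without CD31, Ter119 and CD45, surface markers of endothelium, red cells and leukocytes, had been sorted. The control library held 4903 cells and the Stat3KO library 1340 cells. With 1 library per genotype no difference could be tested, and every ratio below compares these libraries only.

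Osteoblasts secrete type I collagen and then the non-collagenous proteins that bind calcium and cells. Alkaline phosphatase (Alpl) breaks down pyrophosphate, an inhibitor of mineral, and PHOSPHO1 releases phosphate inside matrix vesicles, where the first crystals form. Bone sialoprotein (Ibsp), osteopontin (Spp1) and dentin matrix protein 1 (Dmp1) bind the growing mineral, while osteocalcin (Bglap) and matrix Gla protein (Mgp) are small vitamin K-dependent proteins, the former a product of mature osteoblasts and the latter an inhibitor of mineral in cartilage and vessels. Hypertrophic chondrocytes at the edge of the growth plate also express Ibsp, Spp1 and Alpl together with the collagenase gene Mmp13.

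The 3 Bglap copies lie side by side on the minus strand of chromosome 3 within 15.8 kb, Bglap3 at chr3:88368616-88372743, Bglap2 at chr3:88377736-88378699 and Bglap at chr3:88383501-88384464 (GRCm38, the assembly of mm10, Gencode M21). Their coding sequences are printed because reads of one copy can be assigned to another. Each has 288 coding bases in 4 coding exons, given from start to stop codon as transcribed, with the bases that differ from Bglap in capitals.
Bglap: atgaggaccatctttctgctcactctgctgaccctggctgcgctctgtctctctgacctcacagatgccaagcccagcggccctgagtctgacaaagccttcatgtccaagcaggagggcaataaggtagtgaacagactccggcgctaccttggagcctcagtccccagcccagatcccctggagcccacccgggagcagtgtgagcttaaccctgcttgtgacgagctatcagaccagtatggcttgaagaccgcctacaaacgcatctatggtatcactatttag
Bglap2: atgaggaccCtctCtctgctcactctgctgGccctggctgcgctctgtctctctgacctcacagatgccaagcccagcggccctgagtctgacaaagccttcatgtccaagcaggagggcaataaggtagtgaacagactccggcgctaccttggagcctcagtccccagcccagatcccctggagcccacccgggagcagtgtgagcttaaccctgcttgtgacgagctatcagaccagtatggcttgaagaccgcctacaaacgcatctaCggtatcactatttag
Bglap3: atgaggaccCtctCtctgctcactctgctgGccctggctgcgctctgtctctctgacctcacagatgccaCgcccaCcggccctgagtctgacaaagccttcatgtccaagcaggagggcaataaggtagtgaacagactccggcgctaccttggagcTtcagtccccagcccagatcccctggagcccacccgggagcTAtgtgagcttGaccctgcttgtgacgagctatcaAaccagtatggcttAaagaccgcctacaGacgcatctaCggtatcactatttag
Bglap2 differed from Bglap at 4 and Bglap3 at 13 coding bases, and Bglap2 and Bglap3 differed at 9. The last 100 bases of the annotated Bglap and Bglap2 transcripts were identical, and those of Bglap3 differed from either at 2 bases. Bglap and Bglap2 also shared an unbroken identical run of 241 bases, longer than the 81 bases shared by Bglap and Bglap3. A 3′ library reads this end of the molecule, so the split between Bglap and Bglap2 is uncertain, and the sum of the 3 copies is given beside each copy.

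Dmp1 (chr5:104202613-104214102), Ibsp (chr5:104299171-104311469) and Spp1 (chr5:104435118-104441050) lie on the plus strand of chromosome 5 in a cluster of 5 genes spanning 270.3 kb, with Dspp before Dmp1 and Mepe between Ibsp and Spp1. The other genes lie apart, Alpl at chr4:137741733-137796384, Mgp at chr6:136872435-136875823, Ifitm5 at chr7:140948958-140950291 and Phospho1 at chr11:95824499-95832140. RefSeq promoter windows (GRCm38.p6) were given for 8 of the 10 genes, all but Bglap2 and Mgp. The 250 bases before the start are shown for Bglap, Ibsp and Spp1, abundant genes that drew on different cells below. Capitals mark matches, on either strand, to AACCACA, which RUNX factors recognise, to TATAAA, the TATA box sequence, or to TAATTG, which many homeodomain factors recognise.
Bglap promoter, chr3:88384467-88384716, minus strand: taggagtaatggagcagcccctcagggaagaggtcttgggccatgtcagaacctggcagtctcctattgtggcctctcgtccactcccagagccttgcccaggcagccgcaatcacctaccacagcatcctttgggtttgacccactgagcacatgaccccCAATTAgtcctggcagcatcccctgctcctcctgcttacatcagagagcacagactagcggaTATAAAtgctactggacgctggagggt
Ibsp promoter, chr5:104299037-104299286, plus strand: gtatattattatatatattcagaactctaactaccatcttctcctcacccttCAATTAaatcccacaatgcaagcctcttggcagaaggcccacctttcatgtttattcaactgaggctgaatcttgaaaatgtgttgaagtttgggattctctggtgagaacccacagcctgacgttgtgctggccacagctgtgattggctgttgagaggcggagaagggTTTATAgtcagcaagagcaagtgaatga
Spp1 promoter, chr5:104434861-104435110, plus strand: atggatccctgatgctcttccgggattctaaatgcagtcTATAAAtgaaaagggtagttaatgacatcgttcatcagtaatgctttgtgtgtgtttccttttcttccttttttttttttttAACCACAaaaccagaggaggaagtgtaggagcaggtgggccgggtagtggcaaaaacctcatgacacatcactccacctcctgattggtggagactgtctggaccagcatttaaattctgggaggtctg
The Bglap window held TATAAA with its first base 27 bases before the start, and the Ibsp window held it on the other strand, with its first base as printed 28 bases before the start. Both also held TAATTG on the other strand. The Spp1 window held TATAAA far from the start, with its first base 211 bases before it. The Spp1 and Dmp1 windows held AACCACA, and no match was found in the windows of Bglap3, Ifitm5, Phospho1 and Alpl. Among all 32851 windows cut to the same 250 bases, 4.40% held AACCACA, 12.4% TATAAA and 7.17% TAATTG, and a match is a description, not a binding site.

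Levels are given as estimated UMIs per 1000000 UMIs (CPM). The estimated UMIs (unique molecular identifiers, counts of molecules after removal of ambient RNA) of a gene were summed over the cells of a set and divided by all UMIs of those cells, so each molecule counts once at its 3′ end and gene length does not enter. The 3 sets were Sp7/Ifitm5 cells (Sp7, a transcription factor of osteoblasts, or Ifitm5 above 0; 197 control and 140 Stat3KO cells), Mmp13 cells (Mmp13 above 0; 262 and 102) and the chondrocytes the authors marked (501 and 332). The marked cells were the Sox9+Col2a1+ cells without a globin UMI. That rule left out 512 of 1013 such cells in the control but only 3 of 335 in the Stat3KO library. Sets overlapped, with 36 control and 23 Stat3KO cells in the first 2 sets and 40 and 47 in the first and last. Cells in none of the sets numbered 4036 and 847.

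The libraries differed in ways that touch these genes. Median UMIs per cell were 4344 in the control and 3743 in the Stat3KO library, but in Sp7/Ifitm5 cells they were 5602 and 10352. A globin UMI was present in 75.7% of control and 8.43% of Stat3KO cells although Ter119-positive cells had been sorted out, and in 46.7% and 3.57% of Sp7/Ifitm5 cells. Mitochondrial counts exceeded 5% in 14.2% and 36.7% of cells. The libraries shared 2 cell barcodes. Stat3 itself was at 142 CPM in control and 103 CPM in Stat3KO cells in marked chondrocytes and at 117 and 118 CPM in Sp7/Ifitm5 cells. Which part of Stat3 was floxed is not given in the sources used here, so this 3′ level need not report the deletion. Among the Sp7/Ifitm5 cells 8 of 10 osteoblast-lineage markers were at least 2-fold above cells in none of the sets in both libraries. That list holds Sp7, a gate gene at 0 in those other cells by construction. However, 11 of 12 chondrocyte markers also stood at least 2-fold above them in both libraries. So did 6 of 6 hypertrophic markers, a list that holds Mmp13, and 2 of 6 osteocyte markers. The latter were Dmp1, at 106 and 145 CPM, and Phex, at 73.4 and 153 CPM. Of the osteoclast list 0 of 6 did, with Ctsk at 69.5 and 112 CPM, and of the leukocyte list 0 of 4. The osteocyte markers Sost and Fgf23, the osteoclast markers Ocstamp, Dcstamp and Calcr and the leukocyte markers Ptprc and Cd52 were listed at 0 in Sp7/Ifitm5 cells of both libraries. Their erythroid marker sum (5 genes) was 163 CPM in control and 5.16 CPM in Stat3KO cells. The marrow stroma markers stood higher in the gated Stat3KO cells, 3 of 4 by at least 2-fold, and summed to 389.7 and 813 CPM. In Mmp13 cells, 5 of 6 hypertrophic markers (a list that holds Mmp13) and 4 of 4 marrow stroma markers, led by Cxcl12, were at least 2-fold above the ungated cells in both libraries. The stroma markers summed to 4938 and 5063 CPM there. In marked chondrocytes 12 of 12 chondrocyte markers were at least 2-fold above ungated cells in both. That list holds Sox9 and Col2a1, which all marked cells carry by selection.

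The genes were spread differently over the sets. The Sp7/Ifitm5 cells made up 4.02% of control and 10.4% of Stat3KO cells and held 88.4% and 93.6% of all summed Bglap UMIs. For Spp1 the same cells held 33.0% and 45.6%, and Mmp13 cells outside the gate held another 45.8% and 32.1%. Of the Ibsp UMIs the gate held 42.2% and 43.8%, while marked chondrocytes outside both gates held 9.09% in the control and 34.6% in the Stat3KO library. Mgp lay elsewhere: the Sp7/Ifitm5 cells held 5.29% and 7.88% of its UMIs, and marked chondrocytes outside both gates held 32.6% and 48.7% and cells of none of the sets 54.6% and 36.7%. The marked set leaves out Sox9+Col2a1+ cells with a globin UMI, 512 in the control and 3 in the Stat3KO library. Shares of marked and ungated cells are therefore not alike between the libraries, and the part of this rule in them was not tested. Ifitm5 defined a gate, so its whole count lay there by construction.

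**Figure D1:**
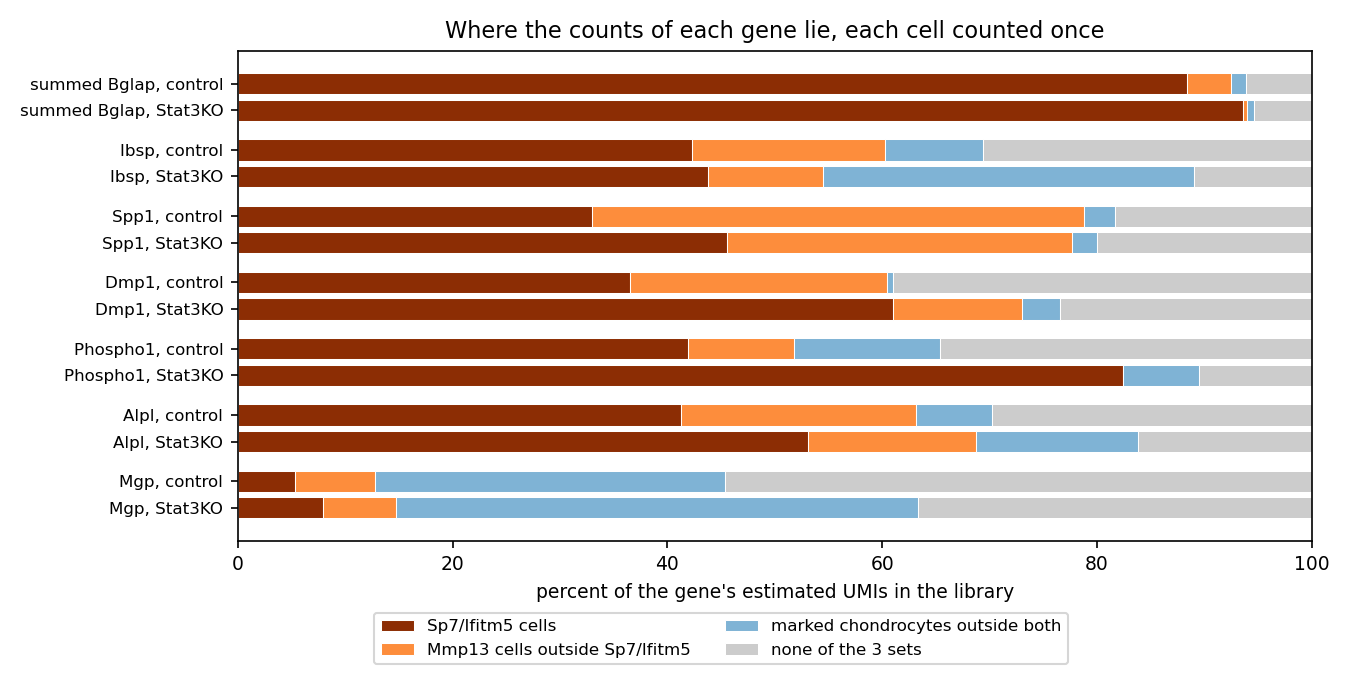
Share of each gene's estimated UMIs in each library (x axis, percent) by set of cells, each cell counted once in the order of the legend. Summed Bglap was nearly all in Sp7/Ifitm5 cells (88.4% control, 93.6% Stat3KO), Spp1 was split with Mmp13 cells, and Mgp lay mostly outside both gates.

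Except for Mgp, few cells carried most of the counts. For Bglap, 10 cells of the control and 10 of the Stat3KO library held 50% of the UMIs. The same share took 31 and 15 cells for Ibsp, 30 and 14 for Spp1, 70 and 33 for Alpl and 208 and 55 for Mgp. Dmp1, a gene of late osteoblasts and osteocytes, was the most concentrated, with 37.7% and 35.2% of its UMIs in 3 cells. The 10 cells highest in summed Bglap were all Sp7/Ifitm5 cells in both libraries, none had Mmp13 above 0, and they held 48.8% and 52.6% of the copies' UMIs. Of the 10 cells highest in Spp1, 9 in the control and 5 in the Stat3KO library were Mmp13 cells, and 2 and 7 were Sp7/Ifitm5 cells. Of the 10 highest in Mgp, 5 and 6 were marked chondrocytes.

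Osteocalcin was the most abundant of these products in the Sp7/Ifitm5 cells. In Sp7/Ifitm5 cells Bglap was at 8737 CPM in control and 28384 CPM in Stat3KO cells, Bglap2 at 1104 and 5774 CPM and Bglap3 at 705 and 2456 CPM. The sum of the copies was 10546 and 36614 CPM, against 928 and 2152 CPM in Mmp13 cells, 594 and 3831 CPM in marked chondrocytes and 46.9 and 936 CPM in cells of none of the sets. The gated cells thus stood highest in both libraries, Mmp13 cells and marked chondrocytes changed places between them, and each of these 4 values was higher in the Stat3KO library. Single Sp7/Ifitm5 cells ranged from 0 through a median of 166 CPM to 139419 CPM in the control, and from 0 through 1399 to 293111 CPM in the Stat3KO library. In the highest Stat3KO cell the copies made up 29.3% of all UMIs, and in the highest control cell 13.9%. The ranges overlapped up to the highest control cell, and the highest Stat3KO cells lay above every control cell.

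The gate held cells of very different osteocalcin content. Summed Bglap was listed at 0 in 74 of 197 control and 37 of 140 Stat3KO cells of the gate. It reached 10000 CPM in 40 control cells, 20.3% of the gate (exact 95% binomial interval 14.9% to 26.6%, counting error only), and in 50 Stat3KO cells, 35.7% (27.8% to 44.2%). Within those cells Bglap was at 40185 CPM in control and 76209 CPM in Stat3KO cells, so both the share of such cells and the level in them were higher in the Stat3KO library. The cells also differed in their collagens. Where the copies were at 0, Col2a1, the cartilage collagen, was at 22573 and 25367 CPM and Col1a1, the bone collagen, at 11235 and 2258 CPM. At 10000 CPM of osteocalcin or more, Col2a1 was at 314 and 1031 CPM and Col1a1 at 116868 and 76979 CPM. The gate thus held cells rich in cartilage collagen RNA and poor in osteocalcin beside cells rich in bone collagen RNA, in both libraries.

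**Figure D2:**
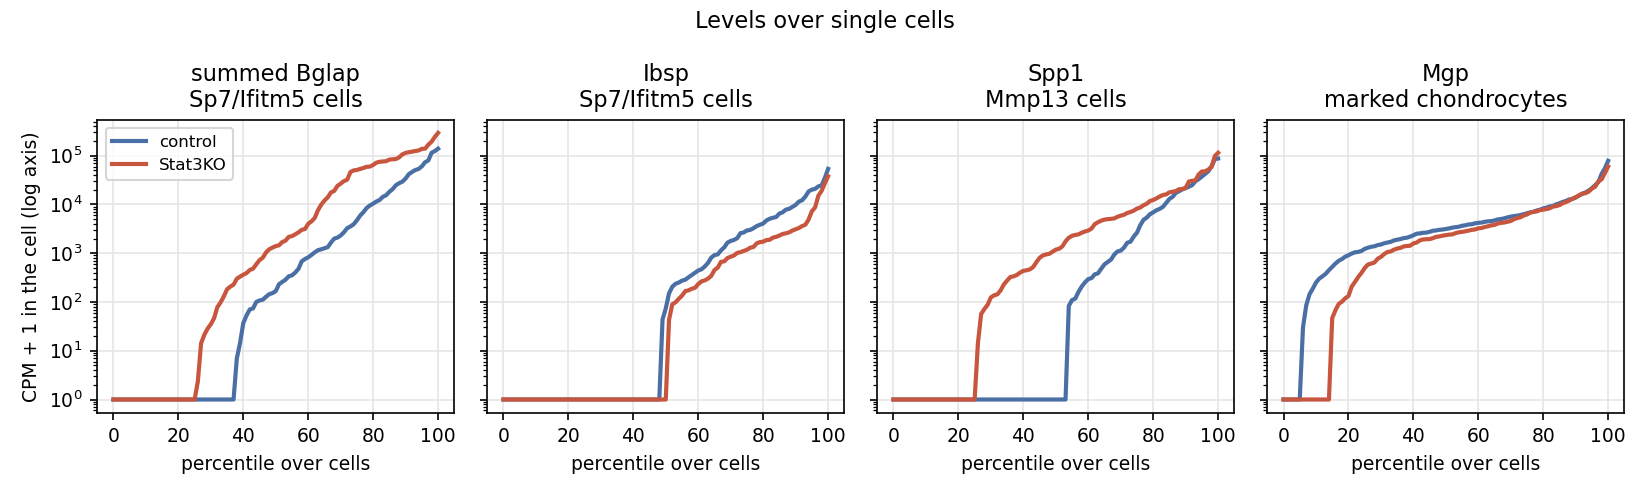
Level in single cells (y axis, CPM + 1 on a log axis) against the percentile of the cell within its set (x axis), for summed Bglap and Ibsp in Sp7/Ifitm5 cells, Spp1 in Mmp13 cells and Mgp in marked chondrocytes, by library (line colour). Summed Bglap was higher in the Stat3KO library along the whole curve above 0 (medians 166 and 1399 CPM), the Ibsp curve was lower in the Stat3KO library wherever either was above 0, Spp1 was higher over nearly its whole length and Mgp lower over most of it.

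Cells positive for both gate genes were the richest in osteocalcin. In the 28 control and 32 Stat3KO cells with both Sp7 and Ifitm5, summed Bglap was at 35007 and 90689.5 CPM and was above 0 in 96.4% of 28 cells (95% interval 81.7% to 99.9%) and 100% of 32 cells (95% interval 89.1% to 100%). Cells with Ifitm5 alone held 18885 and 52958 CPM and cells with Sp7 alone 848 and 4123 CPM. The order, both genes over Ifitm5 alone over Sp7 alone, was the same in the 2 libraries.

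Bglap supplied most of the osteocalcin UMIs, and Bglap2 a larger share of them in the Stat3KO library. Over the gate, Bglap made up 82.8% of the copies' UMIs in the control and 77.5% in the Stat3KO library, Bglap2 10.5% and 15.8%, and Bglap3 6.68% and 6.71%. Among cells of any kind with 100 or more UMIs of the copies (29 control, 55 Stat3KO), the Bglap2 share ran from 6.54% through a median of 9.54% to 19.9% in the control. In the Stat3KO library it ran from 7.68% through 16.9% to 25.03%, so the ranges overlapped. The median Bglap3 share differed less, 5.96% and 6.60%. How reads that match more than 1 copy were assigned is not given in the sources used here, and its part in the split was not tested.

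Bone sialoprotein and osteopontin RNA were shared between Sp7/Ifitm5 and Mmp13 cells. Ibsp was at 3098 CPM in control and 1883 CPM in Stat3KO cells in Sp7/Ifitm5 cells, at 3078 and 2327 CPM in Mmp13 cells, at 324 and 937 CPM in marked chondrocytes and at 144 and 208 CPM in the ungated cells. Its levels in the first 2 sets were close in the control, and in the Stat3KO library Mmp13 cells stood higher. Spp1 was highest in Mmp13 cells in both libraries, at 5461 CPM in control and 10879 CPM in Stat3KO cells, against 2594 and 4991 CPM in Sp7/Ifitm5 cells and 179 and 1177 CPM in marked chondrocytes. Mmp13 cells without a gate gene held 2.85 and 2.82 times the Spp1 level of gated cells without Mmp13. Spp1 was above 0 in 46.6% of 262 cells (95% interval 40.4% to 52.8%) of the control Mmp13 set and in 73.5% of 102 cells (95% interval 63.9% to 81.8%) of the Stat3KO set. With cells thinned to 1000 UMIs and shallower cells left out, these shares were 34.9% of 249 and 61.9% of 97 cells. In erythroid cells, which should lack the gene, the unthinned shares were 1.15% and 2.60% (median 5937 and 1301 UMIs, against 3631 and 6219 in Mmp13 cells).

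**Figure D3:**
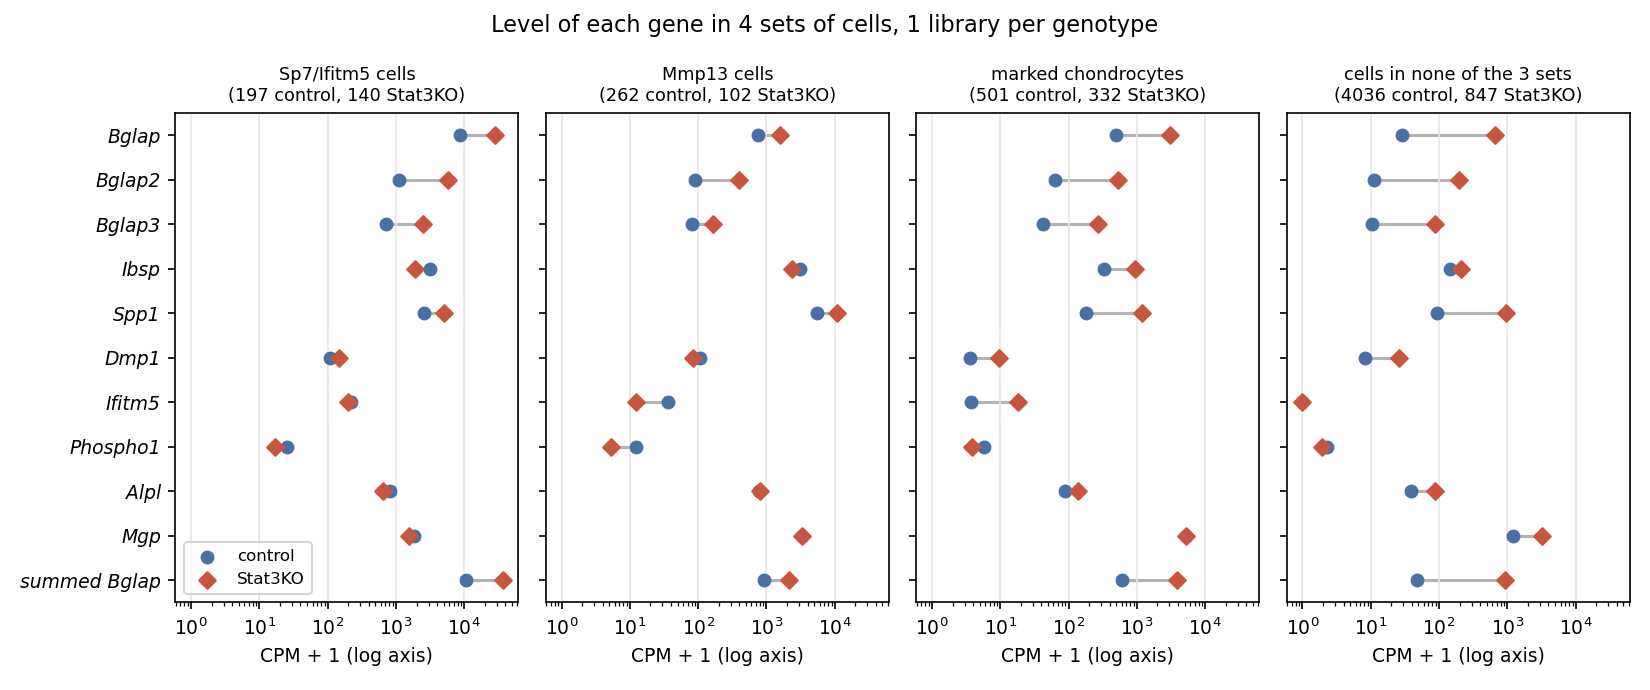
Level of each gene (x axis, CPM + 1 on a log axis) in Sp7/Ifitm5 cells, Mmp13 cells, marked chondrocytes and cells in none of these sets, with circles for the control and diamonds for the Stat3KO library, 1 library each and no error bar. The Bglap copies and Spp1 moved to the right in all 4 panels, while Mgp stayed near 5286 CPM in marked chondrocytes.

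Dmp1 was rare, at 106 and 145 CPM in Sp7/Ifitm5 cells and 105 and 84.5 CPM in Mmp13 cells. It was above 0 in 28 control and 33 Stat3KO cells of the first gate, and 3 cells held 59.7% and 56.4% of those UMIs. A difference between the libraries was therefore not readable from Dmp1. Its highest cells reached 14892 CPM in control and 4515 CPM in Stat3KO cells.

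The phosphatase genes differed in level and spread. Alpl was at 806 CPM in control and 644 CPM in Stat3KO cells in Sp7/Ifitm5 cells and at 767 and 812 CPM in Mmp13 cells, and at 87.3 and 135 CPM in marked chondrocytes. In the first gate it was above 0 in 65.0% and 65.7% of cells, and the top 3 cells held 10.9% and 14.8% of its UMIs, the lowest such shares of the 10 genes in either library. Phospho1 was near the detection limit of single cells, at 24.4 and 16.1 CPM and above 0 in 25 and 19 cells of that gate, with at most 4 and 2 UMIs in a cell. In Mmp13 cells it was at 11.5 and 4.37 CPM, lower than in that gate in both libraries. Ifitm5, a small membrane protein of bone-forming cells, was at 219.5 and 195 CPM in the gate it helped to define, and 83 control and 63 Stat3KO cells carried it. Of these, 28 and 32 also carried Sp7.

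Mgp was the most widely detected of the 10 genes and was highest in marked chondrocytes. It was at 5286 CPM in control and 5171 CPM in Stat3KO cells in marked chondrocytes and above 0 in 94.0% of 501 cells (95% interval 91.6% to 95.9%) and 85.5% of 332 cells (95% interval 81.3% to 89.1%), against 7.82% and 9.09% of erythroid cells. Thinned to 1000 UMIs, with shallower cells left out, the shares were 78.4% of 490 and 70.3% of 320 marked cells. Mgp was also present in other cells: ungated cells held 1222 and 3211 CPM, cells with Pi16, a fibroblast gene, 1294 and 1193 CPM, and cells with Rgs5, a mural cell gene, 1511 and 2421 CPM. It was above 0 in 52.7% and 65.9% of Pi16 cells and 54.6% and 50.6% of Rgs5 cells. The level in marked chondrocytes was 4.33 times that of ungated cells in the control and 1.61 times in the Stat3KO library. It was at 1841 and 1562 CPM in Sp7/Ifitm5 cells and at 3343 and 3360 CPM in Mmp13 cells. The last value rested on few Stat3KO cells, since 1 of the 102 cells held 50% of the UMIs or more and the top 3 held 79.4%. In cells with both Sp7 and Ifitm5 Mgp was at 328 and 7.05 CPM, above 0 in 10 of 28 and 4 of 32 cells. Of the control UMIs there, 96.0% came from 3 cells. Inside the Sp7/Ifitm5 gate, Mgp went from 2066 and 4111 CPM where osteocalcin was at 0 down to 128 and 7.86 CPM where it reached 10000 CPM.

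High osteocalcin and high Mgp were rarely found in the same cell. Of cells with 100 or more summed Bglap UMIs, 1 of 29 in the control (3.45%, exact 95% interval 0.0873% to 17.8%) and 0 of 55 in the Stat3KO library, which allows a share of up to 5.45%, had 20 or more Mgp UMIs, against 12.4% and 21.4% of all cells. The same cells had 20 or more Spp1 UMIs in 37.9% and 34.5% of cases, above the 2.06% and 6.57% of all cells. Over the Sp7/Ifitm5 cells of each library, Pearson's r of the deposited log2 values was 0.81 and 0.90 for Bglap with Bglap2, 0.46 and 0.61 for Bglap with Ibsp and 0.57 and 0.38 for Ibsp with Spp1. Mgp was negative with Bglap, at -0.33 and -0.71, and with each of the other 9 genes in both libraries. These r values describe 197 and 140 cells that share a library and differ in depth, and the Bglap copies share reads.

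**Figure D4:**
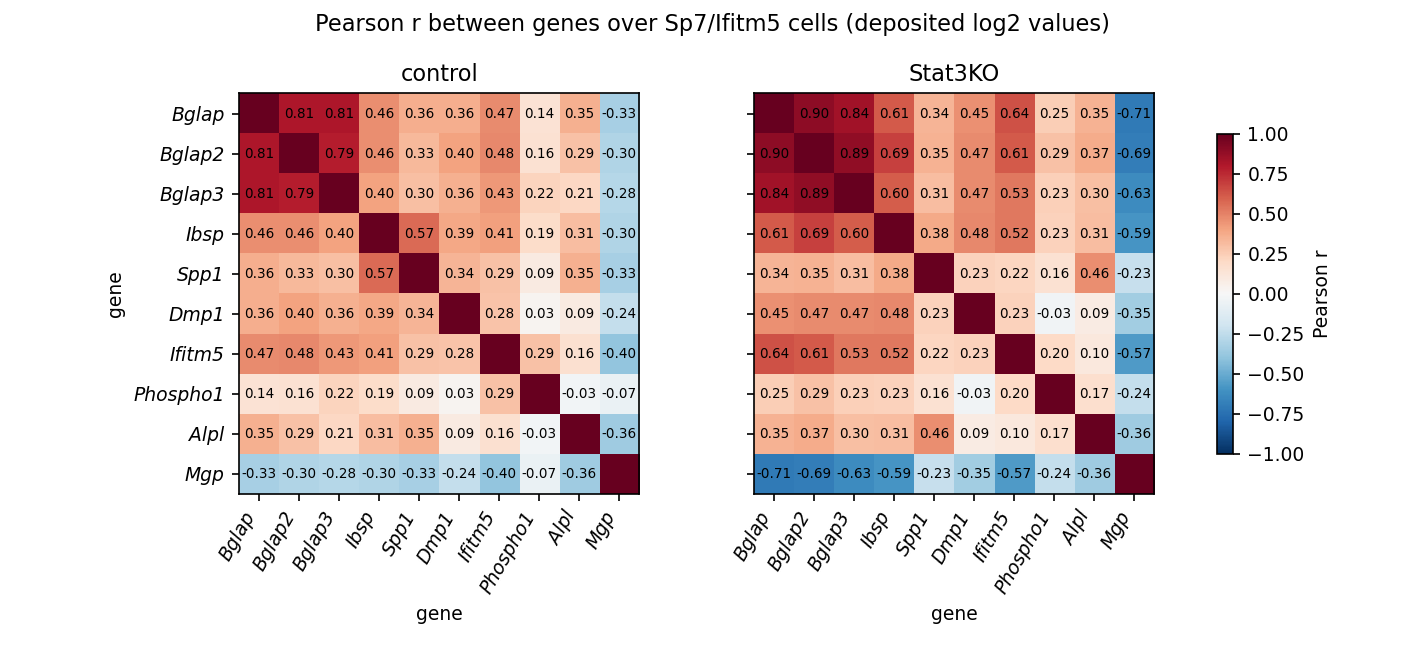
Pearson's r between each pair of the 10 genes (both axes) over the Sp7/Ifitm5 cells of the control (left) and Stat3KO (right) library, by colour and printed value. The 3 Bglap copies formed the block of highest values (Bglap with Bglap2 0.81 and 0.90), and the Mgp row was negative throughout.

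The genotypes were then compared set by set, calling a gene at a 2-fold difference in CPM among genes at 10 CPM or more in either library. In Sp7/Ifitm5 cells 3 of the 10 genes, the Bglap copies, were at least 2-fold higher in the Stat3KO library and 0 were 2-fold lower, where 5.26% and 12.2% of all 8741 genes passed in these directions. Reads of one copy can be assigned to another, so here and in the counts below the 3 copies are not 3 separate calls. The log2 ratio (Stat3KO over control, with 1 CPM added to each) was 1.70 for Bglap, 2.39 for Bglap2, 1.80 for Bglap3 and 1.80 for their sum. For the sum it ran from 1.37 to 2.14 over 13 alternative settings. Spp1 was just under the limit at 0.94, Dmp1 was at 0.45, and Ifitm5 (-0.17), Ibsp (-0.72), Phospho1 (-0.57), Alpl (-0.32) and Mgp (-0.24) were lower in the Stat3KO library by less than 2-fold. Over the same settings Spp1 ran from 0.56 to 1.25, Dmp1 from -0.07 to 1.83 and Ifitm5 from -0.57 to 0.21. Ibsp ran from -1.13 to -0.21, and Mgp from -5.35, with a gate on both genes, to 0.03. Phospho1 and Alpl stayed lower by less than 2-fold. The median of the 10 genes was 0.14, beside -0.26 over all genes tested. The gated Stat3KO cells also held less erythroid and more stroma marker RNA and had more UMIs per cell, as given above, and the part of these in the ratios was not tested. Without cells holding a globin UMI the log2 ratio of the sum was 1.53.

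In Mmp13 cells the same comparison gave no common direction. Bglap (1.07) and Bglap2 (2.13) were at least 2-fold higher and Ifitm5 (-1.56) and Phospho1 (-1.22) at least 2-fold lower in the Stat3KO library, against 6.7% and 12.1% of 9541 genes. The low pair rested on 10 and 3 cells with Ifitm5 and 8 and 2 with Phospho1. The higher osteocalcin lay in Mmp13 cells that were also in the Sp7/Ifitm5 gate. Without those 36 and 23 cells the summed copies were at 719 and 417 CPM, lower in the Stat3KO library, and the log2 ratio turned from 1.21 to -0.79. With the Sp7/Ifitm5 cells kept but the 3 cells highest in the summed copies left out of each library, it was 0.71. Spp1 was 1.99 times the control level, with a log2 ratio of 0.99 that ran from 0.51 to 1.14 over 11 settings. Ibsp (-0.40), Alpl (0.08) and Mgp (0.01) differed by less than 2-fold. Leaving the 3 highest cells of each gene out of each library took Ibsp to -1.29 and Mgp to -1.86, past 2-fold lower. Without Sox9+Col2a1+ cells Mgp was at 1.08. The median of the 10 genes was 0.04 and that of all genes tested -0.13.

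Within the Mmp13 cells, Spp1 and Mgp were found together as well as apart. In the control 65 of 262 cells had both above 0, 57 Spp1 alone, 84 Mgp alone and 56 neither. In the Stat3KO library the numbers were 37, 38, 13 and 14 of 102. Cells with Mgp alone were thus 32.1% (26.5% to 38.1%) of control and 12.7% (6.96% to 20.8%) of Stat3KO Mmp13 cells, at median depths of 4011 and 5896 UMIs. Col10a1, the collagen of hypertrophic chondrocytes, was at 2994 and 6883 CPM in cells with both and at 6.44 and 50.4 CPM in cells with Spp1 alone. Each value is pooled over the cells of its group, and how many of them carried most of the Col10a1 was not counted. Ibsp, by contrast, was higher in the cells with Spp1 alone, at 7253 and 3303 CPM, than in those with both, at 3908 and 2295 CPM.

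In marked chondrocytes 6 of the 8 genes at 10 CPM or more (Bglap, Bglap2, Bglap3, Ibsp, Spp1 and Ifitm5) were at least 2-fold higher in the Stat3KO library and none was 2-fold lower, where 4.57% and 6.63% of 8117 genes passed. The log2 ratios were 2.69 for summed Bglap, 2.71 for Spp1, 1.53 for Ibsp, 0.62 for Alpl and -0.03 for Mgp. The median of all 10 genes, those under 10 CPM included, was 1.90 against -0.18 over all genes tested. The osteocalcin came from very few marked cells. Of all, 2 of 501 control and 11 of 332 Stat3KO cells had 100 or more summed Bglap UMIs and held 86.5% and 96.3% of it, and 2 and 10 of them were also Sp7/Ifitm5 cells. Their median Col2a1 was 17.7 and 21.2 UMIs, against 255 and 138 in the other marked cells, and their median Col1a1 was 578 and 657 against 0 and 0 UMIs. Their median Mgp was 0 UMIs in both libraries. The control medians rest on 2 cells and were different at a lower limit. With 10 or more UMIs of the copies there were 7 control cells, 3 of them in the gate, with median Col2a1 of 328, Col1a1 of 0 and Mgp of 60.5 UMIs, against 253, 0 and 19.4 in the others. The 19 such Stat3KO cells, 14 of them in the gate, had medians of 3.26, 247 and 0.

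Without the Sp7/Ifitm5 cells, marked chondrocytes held 79.5 and 178 CPM of summed Bglap, a log2 ratio of 1.16. Erythroid cells of the same libraries, gated on at least 2 of 5 markers, held 7.001 and 215 CPM. The Stat3KO erythroid gate was small and shallow, with 77 cells of 1301 median UMIs, and 85.7% of them were above the mitochondrial limit. Pi16 cells held 15.0 and 65.1 CPM and Rgs5 cells 413 and 139 CPM. Beside these 3 gates, the Stat3KO value of marked cells lay below the erythroid value and above the Pi16 and Rgs5 values. The remaining marked cells held 318 and 879 CPM of Ibsp and 178 and 438 CPM of Spp1, against 29.5 and 0 CPM and 4.13 and 6.18 CPM in erythroid cells. Pi16 cells held 5.48 and 84.9 CPM of Ibsp and 2.39 and 909 CPM of Spp1, and Rgs5 cells 150.2 and 9.11 CPM and 395 and 478 CPM. These Stat3KO values rested on few cells. Of the 41 Stat3KO Pi16 cells 4.88% had Ibsp and 4.88% Spp1 above 0, and of the 89 Rgs5 cells 2.25% and 11.2%. Ibsp in the marked cells was thus above all 3 in both libraries, while Spp1 in the Stat3KO marked cells was below the Pi16 and Rgs5 cells. The log2 ratios of Ibsp and Spp1 in the remaining marked cells were 1.46 and 1.29, both above 2-fold. Of the Stat3KO UMIs, 3 cells held 29.97% for Ibsp and 77.9% for Spp1. With Bglap2 and Bglap3 they made 4 of 7 genes at 10 CPM or more, with none 2-fold lower, where 4.69% and 7.05% of all genes passed. Summed Bglap was above 0 in 19.8% of control and 38.0% of Stat3KO marked cells and in 3.04% and 41.6% of erythroid cells. Thinned to 1000 UMIs, the marked cells gave 4.08% and 14.7% and the erythroid cells 0.589% and 30.5%, the Pi16 cells 1.59% and 5% and the Rgs5 cells 10.57% and 11.5%. Cells under 1000 UMIs were left out of the thinned shares, 38 of 1905 control and 18 of 77 Stat3KO erythroid cells among them. In the Stat3KO library the marked cells were below the erythroid and above the Pi16 and Rgs5 cells, and the part of free RNA in these low values was not tested.

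**Figure D5:**
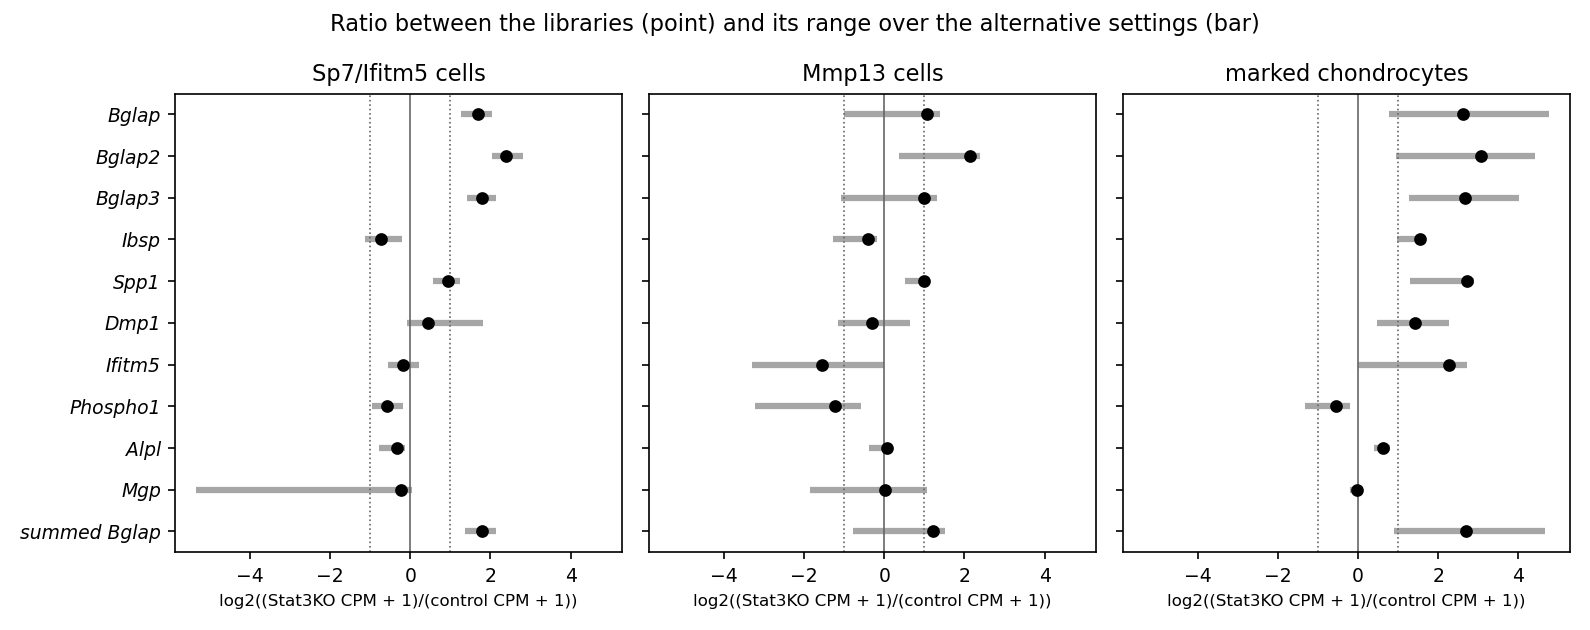
Log2 ratio of Stat3KO over control CPM, with 1 CPM added to each (x axis), for each gene in Sp7/Ifitm5 cells, Mmp13 cells and marked chondrocytes: points are the value as reported and bars the range over the alternative settings, with dotted lines at 2-fold. In Sp7/Ifitm5 cells the 3 Bglap copies stayed above 2-fold throughout (summed copies 1.37 to 2.14), and in Mmp13 cells the range of the summed copies (-0.79 to 1.52) spanned 0.

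Over all cells 9 of the 9 genes at 10 CPM or more were at least 2-fold higher in the Stat3KO library and none was lower, where 11.4% and 16.4% of 9294 genes passed. Summed Bglap was at 615 and 7449.9 CPM (log2 ratio 3.60), Spp1 at 405 and 2085 CPM (2.36) and Mgp at 1794 and 3776 CPM (1.07). A whole-library level also depends on which cells were captured. For Ibsp, Alpl and Mgp the ratios were 1.11, 1.19 and 1.07 over all cells but -0.72, -0.32 and -0.24 within the Sp7/Ifitm5 gate, whose cells were 4.02% of the control and 10.4% of the Stat3KO library. Erythroid-gated cells made up 38.9% of control and 5.75% of Stat3KO cells. Among cells without a globin UMI, 4 genes remained at least 2-fold higher and the summed Bglap ratio was 2.07.

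Other genes of the mineralizing matrix were mostly within 2-fold in Sp7/Ifitm5 cells, where the osteocalcin copies were not. Of 16 genes of phosphate, pyrophosphate and nucleation, 14 reached 10 CPM, of which 1 was at least 2-fold higher and 2 were 2-fold lower in the Stat3KO library (median log2 ratio -0.38, beside the -0.26 of all genes tested). Smpd3, a sphingomyelinase needed for bone mineral, was at 1227 and 878 CPM, Vkorc1, which recycles vitamin K, at 224 and 292 CPM, and Panx3, a channel of osteoblasts and hypertrophic chondrocytes, at 182 and 76.1 CPM (log2 ratio -1.25). Phex, the endopeptidase lost in X-linked hypophosphatemia, was the gene on the higher side at 73.4 and 153 CPM (1.05), and Itgb3, chosen after its value was seen as Phex was, was the other low gene at 12.0 and 2.10 CPM. Of 20 other bone matrix genes, 18 reached 10 CPM, 0 were higher and 1 was lower (median -0.12). The low gene, named after its value was seen, was Postn, which codes for periostin of the periosteum, at 742 and 324 CPM. The type I collagen genes Col1a1 and Col1a2 were at 40418 and 39525 CPM and at 29596 and 33702 CPM, and Sparc, which codes for osteonectin, at 23421 and 22037 CPM. Of 12 bone transcription factor genes, 10 reached 10 CPM and none passed 2-fold in either direction (median -0.12). Mef2c was at 451 and 506 CPM and Atf4 at 273 and 305 CPM. Dspp and Ahsg were listed at 0 in the gate in both libraries.

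The same lists were counted in the other sets, among genes at 10 CPM or more. In Mmp13 cells the mineral handling list gave 0 higher and 3 lower of 14 (median -0.38), other bone matrix 0 higher and 5 lower of 19 (median -0.61) and bone transcription factors 0 higher and 1 lower of 10 (median 0.09), beside a median of -0.13 over all genes tested. In marked chondrocytes they gave 1 higher and 2 lower of 11 (median 0.05), 4 higher and 0 lower of 18 (median 0.51) and 1 higher and 0 lower of 8 (median -0.08), beside -0.18. Markers of other cell types moved in these sets too. Chondrocyte markers gave 1 higher and 8 lower of 12 (median -1.09) in Mmp13 cells and 0 higher and 1 lower of 12 (median -0.46) in marked chondrocytes, marrow stroma markers 0 higher and 0 lower of 4 (median -0.14) and 3 higher and 0 lower of 4 (median 1.83), and osteoblast lineage markers 0 higher and 2 lower of 9 (median -0.10) and 3 higher and 0 lower of 9 (median 0.40). In Sp7/Ifitm5 cells the osteoblast lineage markers gave 0 higher and 0 lower of 10 (median -0.28), chondrocyte markers 0 higher and 1 lower of 12 (median -0.41) and hypertrophic chondrocyte markers 2 higher and 2 lower of 6 (median -0.04). Of the last list Col10a1 was at 56.6 and 638 CPM, with 99.9% of the Stat3KO UMIs in 3 cells. Osteocyte markers gave 2 higher and 0 lower of 3 (median 1.05), the higher being Phex and Pdpn, which codes for podoplanin, at 14.3 and 35.8 CPM. Fibroblast markers gave 0 higher and 0 lower of 4 (median -0.77), mural markers 1 higher and 2 lower of 5 (median 0.23), erythroid markers 0 higher and 4 lower of 4 (median -4.30) and osteoclast markers 0 higher and 0 lower of 2 (median -0.16), while no leukocyte marker reached 10 CPM. The part of these in the ratios of the mineral genes was not tested.

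The genes most like each of the 10, by the mean over the libraries of Pearson's r over all cells, overlapped between them. Among 11488 genes compared over 4903 and 1340 cells, Bglap was closest to Car3 (mean r 0.45) and Slc36a2 (mean r 0.41). Bglap2 and Bglap3 shared Car3 and Slc36a2 and had Col22a1 after them. Ifitm5 had the same leading pair, Car3 (mean r 0.60) and Slc36a2 (mean r 0.50), followed by Cpz (mean r 0.47). Among the genes most like Ibsp was Mef2c (mean r 0.35), and among those most like Spp1 were Cdh11 (mean r 0.38) and Tnc (mean r 0.37). Dmp1 was closest to Enpp6 (mean r 0.37), Ptprz1 (mean r 0.36) and Phex (mean r 0.35), Phospho1 to Slc36a2 (mean r 0.27) and Car3 (mean r 0.26), and Alpl to Cdh2 (mean r 0.45), Fat3 (mean r 0.44) and Tnc (mean r 0.43). Mgp was closest to other genes altogether, with Comp (mean r 0.61), Ecrg4 (mean r 0.59) and Fmod (mean r 0.59), of which Comp and Fmod code for cartilage and tendon matrix proteins. In sparse counts such values depend on depth and on the few cells that hold a gene, and they are descriptions of these libraries.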

How the data were processed

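Cells of 1 control and 1 Stat3KO library were measured by 10x 3′ sequencing. The authors aligned reads with STAR 2.7.3a to mm10 in Partek Flow, collapsed UMIs, called cells, removed ambient RNA with SoupX and deposited log2(CPM + 1) values per cell, where CPM is counts per 1000000. The deposited total per cell is an estimated count, the mitochondrial share a percent, and the number of expressed genes a score. The authors also deposited a mark of the cells they took as chondrocytes. How reads matching several Bglap copies were assigned is not given in the sources used here.

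Each log2 value was turned back into estimated UMIs with the cell's total. Among values above 0, 74.9% (control) and 97.3% (Stat3KO) lay within 0.1 of a whole number, so no count model was used. The libraries held 23576400 and 7452650 UMIs. The tables list somewhat fewer cells than the paper gives, and its limit of 5% mitochondrial counts would leave 4209 and 848 of them. All cells were kept. Scrublet marked 74 and 2 cells (1.51% and 0.149%) as doublets, left out in an alternative only. Ratios used a pseudocount of 1 CPM, and a call needed a 2-fold difference and 10 CPM in either library. Intervals of shares are exact Clopper-Pearson at 95% and, like the limit that 0 of n allows (3 counts), cover counting error only. Genes named from each list were the 3 highest in mean level over the libraries. The most alike genes were the 3 highest in mean Pearson's r among genes found in at least 1% of cells of each library, the 10 genes themselves left out. Some genes that these rules name are not reported here. The 10 genes and the lists were chosen with earlier results of these data known. Python 3.11.15, numpy 2.4.6, scipy 1.17.1 and pandas 2.3.3 were used, and the ratio calculation was tested on simulated data.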

Additional observations from a re-analysis of the deposited data

Results flagged for a closer look

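The genotype ratio of 2 genes pointed in opposite directions in 2 sets of cells, with no test of the difference, since each genotype had 1 library. Ibsp had a log2 ratio of -0.72 in Sp7/Ifitm5 cells, lower in the Stat3KO library, and of 1.53 in marked chondrocytes, higher there. Ifitm5 had a log2 ratio of -1.56 in Mmp13 cells and of 2.27 in marked chondrocytes. The Ifitm5 values rested on 10 and 3 Mmp13 cells and on 5 and 12 marked cells with the gene, and all of these are Sp7/Ifitm5 cells by the gate's rule.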

How the results depend on the processing

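With 1 library per genotype the limits of these values are those of cells and counts. Median-of-ratios scaling moved the median ratio of all genes by 0.20 in Sp7/Ifitm5 cells, 0.16 in marked chondrocytes, 0.10 in Mmp13 cells and 0.04 over all cells on the log2 scale, and raised the log2 ratio of summed Bglap to 1.998, 2.85, 1.31 and 3.64 there. With every cell weighted equally the ratio of the summed copies was 3.02 over all cells, 1.61 in Sp7/Ifitm5, 1.08 in Mmp13 and 2.24 in marked cells. With at most 5% mitochondrial counts it was 3.40, 1.72 and 1.52 in the first 3, without cells with a globin UMI 2.07, 1.53 and 0.85, and without Scrublet doublets 3.56 over all cells. Counting only gate genes at a full UMI gave 1.57 in Sp7/Ifitm5 and 0.48 in Mmp13 cells, and gates on any Sp7, any Ifitm5 or both genes gave 2.14, 1.66 and 1.37. In Mmp13 cells the ratio was 0.71 without the 3 top cells, 0.39 without Sox9+Col2a1+ cells and -0.79 without Sp7/Ifitm5 cells, where Bglap alone turned to -1.01. In marked chondrocytes it was 4.65 without the 3 top cells of each library, 3.36 with all Sox9+Col2a1+ cells, 1.16 without Sp7/Ifitm5 cells and 0.88 without cells of 100 or more UMIs of the copies.

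The number of genes at least 2-fold higher in the Stat3KO library over all cells was 5 with cells weighted equally and 4 without globin-bearing cells. In Sp7/Ifitm5 cells it was 5 with a gate on any Sp7, and the number at least 2-fold lower was 1 with cells weighted equally, 1 without the 3 top cells of each gene, 2 with a gate on any Ifitm5 and 1 with a gate on both. In Mmp13 cells the higher number was 4 with median-of-ratios scaling and with at most 5% mitochondrial counts, and 1 with cells weighted equally, without globin-bearing cells, without the 3 top cells, at a full UMI and without Sp7/Ifitm5 cells, while the lower number was 1 with a pseudocount of 10 CPM or without globin-bearing cells. Without the 3 top cells of each gene the log2 ratios there were -1.29 for Ibsp, -1.15 for Dmp1 and -1.86 for Mgp, each past 2-fold lower. In marked chondrocytes the higher number was 3 without the cells rich in osteocalcin. Of 22 gene ratios past 2-fold, 13 fell below it under at least 1 alternative and 9 stayed past it under all. Leaving Sp7/Ifitm5 cells out of the Mmp13 cells, and cells of 100 or more UMIs of the copies out of the marked cells, was chosen after seeing the data. No paired analysis was possible because each genotype had 1 library. The causes of these shifts were not tested.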
